A study of Mus musculus with 4 samples.

Results

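Of the 4360 genomic regions on chromosomes 1 to 19 that were reproducibly bound by WT1 in embryonic mouse kidney, 770 (17.7%) had at least 2 other such regions within 50 kb, and these 770 clustered regions formed 227 clusters. A region counted as reproducible when the error rate given for it in the deposited table was 0.05 or lower. That value is read here as an irreproducible discovery rate (IDR), which is computed from how well the replicates' ranks match, and a lower IDR is called stronger below. Neighbours were counted by the distance between midpoints, and clustered regions less than 50 kb apart were merged. A further 1142 regions (26.2%) had exactly 1 neighbour, and 2448 (56.1%) had none and are called isolated. The members were chosen by their own IDR and position, so the values below for IDR, significance, width and spacing are descriptions without a test.

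Chromatin was immunoprecipitated and sequenced (ChIP-seq) from microdissected kidneys of wildtype embryos at day E18.5, on a mixed genetic background of C57Bl6 crossed with B6DBA/F1. There were 2 samples with the WT1 (C-19) antibody and 2 negative controls with IgG. The IgG samples were not analysed here, so no background level stands beside the regions, and the sources used here do not state how many embryos went into a sample. WT1 replicates 1 and 2 held 53132 and 57641 peaks, and the deposited overlap table held 17234 regions, of which 4411 were reproducible on all chromosomes.

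WT1 is a zinc-finger transcription factor, named for Wilms' tumour, that binds GC-rich DNA. In the developing kidney it is known for its roles in nephron progenitors, which give rise to the nephron, and in podocytes, the filtering cells of the glomerulus. Transcription factors commonly bind at several sites in and around one gene, at its promoter and at distant enhancers, and an enhancer need not act on the gene nearest to it. In whole kidneys, a site bound in few cells and a site bound weakly in many cannot be told apart.

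The sequences here are of 300-base promoter windows (250 bases before to 50 after the annotated start, RefSeq, GRCm38.p6). They are printed 5' to 3' on the strand of the gene, and region edges are not marked in them. Of 57 genes named by a fixed rule, 42 had a promoter in the sequence table, and in 10 of these a clustered region overlapped it. The first 4 windows are those of lowest IDR among them. Mov10, Preb and Cd82 were chosen after their sequences were seen, as the 3 windows in which a clustered region covered the letters GCGTGGGAG, a WT1-type motif. Capitals mark matches, on either strand, to GCGTGGGAG, GNGTGGGNG (also WT1-type, and matched by every GCGTGGGAG) or GCGGGGGCG (EGR-type, the related motif of another zinc-finger family). A window without capitals holds none of these letters.
Rnf24 promoter, chr2:131352843-131353142, strand -: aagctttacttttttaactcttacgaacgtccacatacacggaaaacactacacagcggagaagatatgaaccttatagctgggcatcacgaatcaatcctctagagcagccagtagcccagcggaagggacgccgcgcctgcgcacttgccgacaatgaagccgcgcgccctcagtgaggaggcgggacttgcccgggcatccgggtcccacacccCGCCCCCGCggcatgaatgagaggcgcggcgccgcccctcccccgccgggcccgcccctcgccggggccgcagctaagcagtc
Nes promoter, chr3:87970843-87971142, strand +: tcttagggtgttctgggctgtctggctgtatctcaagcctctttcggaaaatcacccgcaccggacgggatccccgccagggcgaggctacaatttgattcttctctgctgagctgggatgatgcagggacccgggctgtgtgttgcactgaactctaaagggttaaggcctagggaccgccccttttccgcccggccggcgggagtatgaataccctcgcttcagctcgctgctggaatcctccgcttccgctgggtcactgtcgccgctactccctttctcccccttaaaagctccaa
Sulf2 promoter, chr2:166155236-166155535, strand -: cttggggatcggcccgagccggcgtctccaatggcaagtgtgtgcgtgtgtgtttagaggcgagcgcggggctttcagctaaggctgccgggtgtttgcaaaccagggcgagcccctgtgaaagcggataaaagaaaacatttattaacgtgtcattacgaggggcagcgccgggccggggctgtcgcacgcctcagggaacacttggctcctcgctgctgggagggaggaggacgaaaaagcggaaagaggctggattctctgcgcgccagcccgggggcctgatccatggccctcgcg
Smad3 promoter, chr9:63757945-63758244, strand -: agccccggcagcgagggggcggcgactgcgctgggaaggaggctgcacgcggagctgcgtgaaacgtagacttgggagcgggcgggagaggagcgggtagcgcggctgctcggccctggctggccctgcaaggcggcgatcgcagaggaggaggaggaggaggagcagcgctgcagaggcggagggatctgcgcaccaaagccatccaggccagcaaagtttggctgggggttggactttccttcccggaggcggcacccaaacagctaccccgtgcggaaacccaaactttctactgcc
Mov10 promoter, chr3:104818256-104818555, strand -: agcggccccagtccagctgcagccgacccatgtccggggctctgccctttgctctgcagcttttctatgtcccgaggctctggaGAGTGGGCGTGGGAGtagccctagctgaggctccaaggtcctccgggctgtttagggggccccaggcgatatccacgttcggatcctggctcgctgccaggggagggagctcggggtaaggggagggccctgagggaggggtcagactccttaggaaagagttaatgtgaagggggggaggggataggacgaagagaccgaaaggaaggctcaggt
Preb promoter, chr5:30960278-30960577, strand -: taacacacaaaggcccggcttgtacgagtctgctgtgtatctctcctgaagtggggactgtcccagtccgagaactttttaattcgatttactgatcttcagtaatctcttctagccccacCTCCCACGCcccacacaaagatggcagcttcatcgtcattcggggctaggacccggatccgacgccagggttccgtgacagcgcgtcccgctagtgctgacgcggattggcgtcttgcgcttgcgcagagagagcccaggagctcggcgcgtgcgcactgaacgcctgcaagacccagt
Cd82 promoter, chr2:93462901-93463200, strand -: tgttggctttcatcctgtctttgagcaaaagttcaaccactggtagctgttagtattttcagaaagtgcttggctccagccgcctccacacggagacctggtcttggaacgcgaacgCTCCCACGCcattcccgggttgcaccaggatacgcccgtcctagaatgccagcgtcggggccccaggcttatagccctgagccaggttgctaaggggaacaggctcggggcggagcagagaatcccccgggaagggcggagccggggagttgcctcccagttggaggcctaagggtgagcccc

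At Rnf24, a gene for a RING-finger protein, 3 reproducible regions lay side by side at the promoter, at chr2:131352685-131352937, chr2:131352966-131353175 and chr2:131353210-131353463. The first and the middle one overlapped the printed window, and the last began upstream of it. Their IDRs were 2.27e-06, 3.36e-07 and 0.00161. The middle region had a significance value, the authors' p- or q-value for a peak, of 9.19e-40 in replicate 1 and 8.76e-80 in replicate 2. It covered 177 of the 300 bases printed. The last member of this cluster lay 19.7 kb from the gene. With rows under 1 kb apart joined, the 4 members of this cluster became 2 regions. At Nes, which encodes the intermediate filament nestin, a region over the promoter (chr3:87970911-87971463) covered 232 of the bases shown. Its IDR was 7.29e-07, and its significance values were 2.33e-26 in replicate 1 and 4.07e-51 in replicate 2.

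Over the 95 promoter windows that a clustered region overlapped (0.303% of 31396 windows, against 366 or 1.17% for isolated regions), GNGTGGGNG occurred in 33 (34.7%, exact Clopper-Pearson 95% interval 25.3 to 45.2). It occurred in 31.1% (26.4 to 36.2) of windows overlapped by isolated regions and in 14.3% of all windows. The stricter GCGTGGGAG was found in 4 clustered windows (4.21%, 1.16 to 10.4), those of Mov10, Ets2, Preb and Cd82, in 5.19% (3.15 to 7.99) of isolated windows and in 0.449% of all windows. In Ets2 it lay outside the bound region. GCGGGGGCG was present in 13.7% (7.49 to 22.3) of clustered, 12.8% (9.59 to 16.7) of isolated and 2.93% of all windows. Motif shares in windows under clustered and isolated regions thus lay inside each other's intervals. The median GC content was 64.3% in clustered, 62.3% in isolated and 53.0% in all windows, so base composition moved with these shares and its part in them was not tested. Each window is 1 transcript start, and windows of 1 gene can overlap.

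Most clusters were small. Of the 227, 138 had 3 members, 35 had 4 and 28 had 5 or more, and those 28 held 185 of the 770 members. A cluster of 1 member (21 clusters) or 2 members (5 clusters) arose where the regions beside a member had too few neighbours themselves. The 201 clusters of 3 or more spanned a median of 28.4 kb (interquartile range 18.1 to 42.1), and the shortest spanned 0.921 kb and the longest 156 kb. At the thresholds, the highest IDR of a reproducible region was 0.05 and the lowest of an excluded one 0.050037, and the second neighbour of the last region included lay 50 kb away and that of the first excluded 50.43 kb away.

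**Figure D1:**
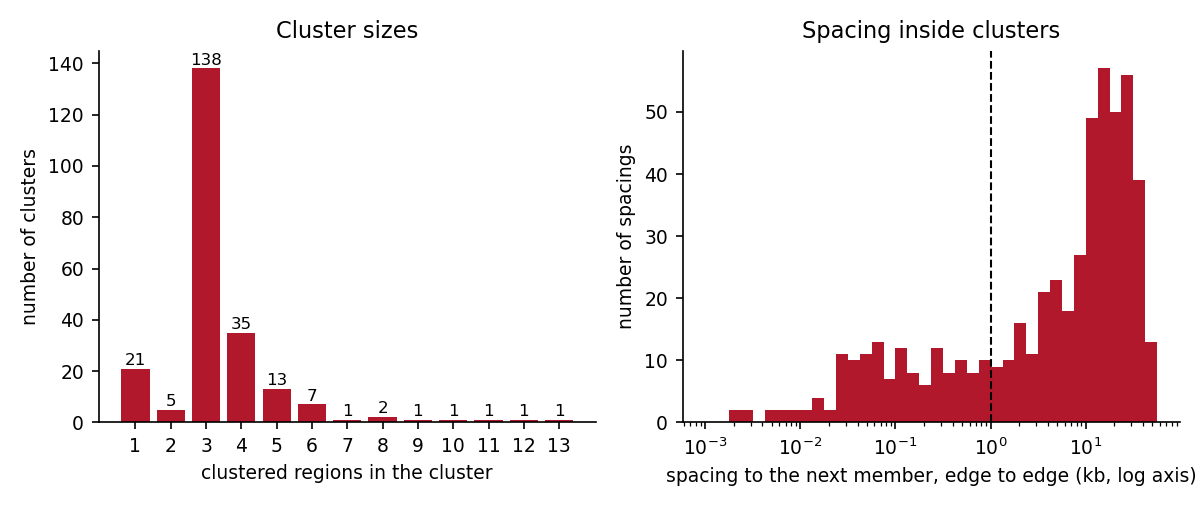
Left, number of clusters by number of clustered regions in each. Right, distances in kb (log axis) from the end of each member to the start of the next, with a dashed line at 1 kb; most clusters have 3 members, and the spacings form a broad group below 1 kb and a taller one above 10 kb.

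Spacings between adjacent members were of different kinds. Of 543 spacings, measured edge to edge, the median was 9.41 kb (interquartile range 0.777 to 20.3). 144 (26.5%) were shorter than 1 kb and 92 (16.9%) shorter than 200 bp, and the smallest was 2 bp. Rows of the deposited table that nearly touch were therefore counted as separate regions, and 109 of the 201 clusters of 3 or more contained at least 1 such spacing below 1 kb. When rows less than 1 kb apart were joined first, 300 rows were absorbed, 481 of 4060 regions (11.8%) were clustered, and 10 clusters had 5 or more members. 126 of the 201 clusters still held 3 or more regions, and 6 became a single region. Among clusters of 4 or more, the lowest median spacing, 26 bp, was in the cluster between Apba1, an adaptor protein gene, and Fam189a2, where regions started at 23959696, 23960048 and 23960365 on chromosome 19. The next were 30 bp beside Gm266 on chromosome 12, near the translation initiation factor gene Eif5, and 34 bp at Rnf24. Single spacings were as small as 2 bp in clusters of this size.

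Region edges were also set against the library protocol, in which, per the labels, the enzyme MseI was paired with AluI or HaeIII to digest the DNA ahead of adapter ligation. Where a region edge fell inside a promoter window, the edge lay within 2 bp of one of their cutting sites (AGCT, GGCC or TTAA) for 18 of 73 clustered edges (24.7%, 15.3 to 36.1) and 46 of 261 isolated edges (17.6%, 13.2 to 22.8). Over all positions of all promoter windows, bound or not, the share was 11.4%. Those windows differ in sites from the ones holding the edges. GGCC occurred in 90.5% of windows under clustered regions, 85.8% under isolated regions and 73.1% of all windows. For TTAA the order was the other way, at 36.8%, 44.0% and 52.3%. The part of digestion in the close spacings was not tested.

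The cluster with the most members, 13 over 130.1 kb, lay around Hes1, a transcriptional repressor gene and classical target of Notch signalling (chr16:29973093-30103182). Hes1 was the only protein-coding gene its span overlapped. The regions nearest to the gene were weak or moderate. The one 0.555 kb from it, at chr16:30068080-30068623, had an IDR of 0.000226 and significance values of 1.64e-10 in replicate 1 and 2.33e-14 in replicate 2. The strongest member was 31.2 kb from the gene, at chr16:30033835-30034438, with an IDR of 4.43e-07 and significance values of 9.13e-32 and 1.87e-71 in replicates 1 and 2. A strong member also stood 35 kb away on the other side, with an IDR of 2.09e-06, and another 52.1 kb away, with an IDR of 2.02e-06. With rows closer than 1 kb joined, 10 regions remained here.

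The cluster of 12 at Cxxc5, a gene for a CXXC zinc-finger protein known to restrain Wnt signalling, ran over chr18:35829287-35927839. Only 2 of its members lay inside the gene, with IDRs of 0.022 and 0.0155. The strongest lay 27.6 kb from Cxxc5, with an IDR of 1.82e-07 and a significance value of 2.71e-53 in replicate 1 and listed as 0 in replicate 2. The last 6 members lay closer to Psd2, at 36.2 to 44.0 kb from it. Joining left 8 regions.

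The third cluster overlapped no protein-coding gene. It held 11 members over 156 kb (chr8:121241782-121397952), the widest span of all, with the forkhead gene Foxl1 111 kb to its left and 1700018B08Rik 133 kb to its right. Its strongest member, at chr8:121258192-121258983, had an IDR of 1.22e-07 and was listed at a significance value of 0 in both replicates. A second strong member stood at the far right end, with an IDR of 2.38e-07 and 4.16e-80 in replicate 1. None of its members were under 1 kb apart, and all 11 regions remained after joining.

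At Ahdc1, which encodes an AT-hook DNA-binding protein, 10 members lay over chr4:133008052-133118032. Of these, 4 lay inside the gene and 1 nearest to Wasf2, a gene of actin polymerisation. The strongest was 17.1 kb outside Ahdc1, with an IDR of 6.17e-07 and significance values of 4.11e-47 and 3.26e-80 in replicates 1 and 2. Midn, a gene for a nuclear protein of protein turnover, had the densest of the 10 largest clusters: 7 members within chr10:80141034-80161893, with 3 inside the gene, 3 beyond one end and 1 in Atp5d, an ATP synthase subunit gene. The member 3.34 kb beyond Midn had an IDR of 1.37e-07. Midn itself spans 12.4 kb. With rows closer than 1 kb joined, 4 regions remained at Midn and 9 at Ahdc1.

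**Figure D2:**
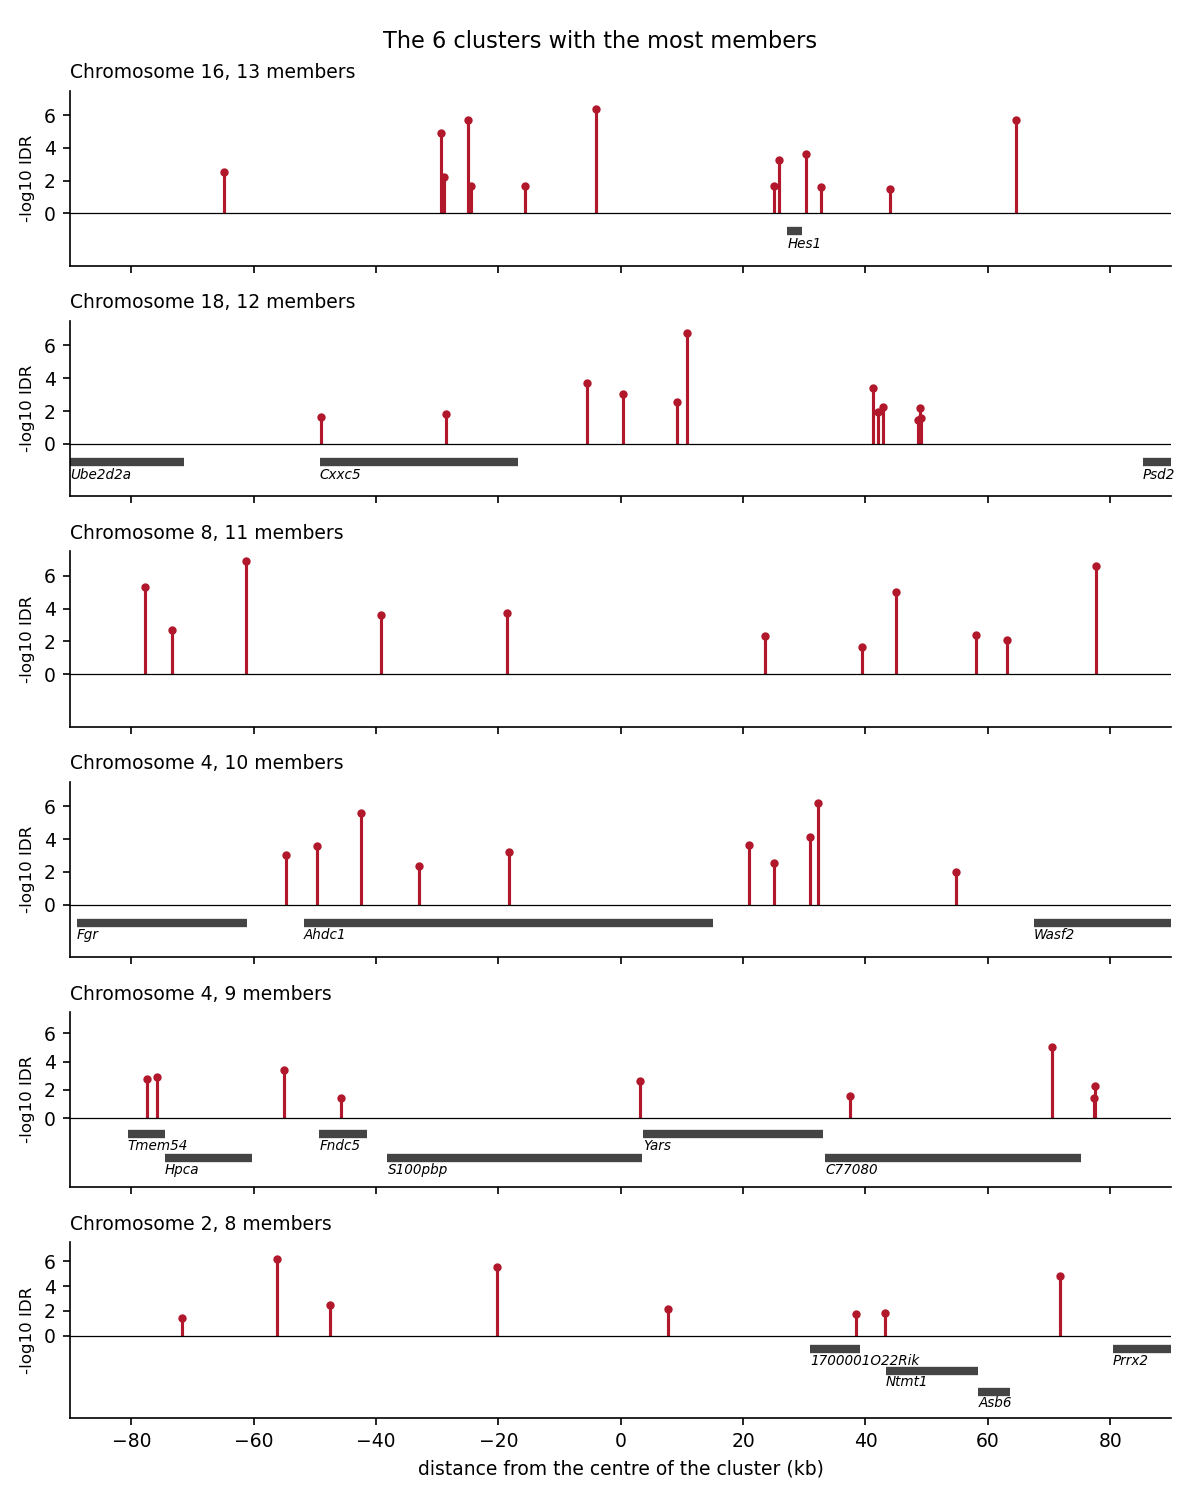
The 6 clusters with the most members: each stem is 1 clustered region at its distance in kb from the centre of the cluster, its height is −log10 IDR, and grey bars are protein-coding genes. The strongest members at Hes1, Cxxc5 and Ahdc1 stand outside these genes, and the cluster on chromosome 8 has no gene in view.

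The remaining clusters among the 10 largest took in between 1 and 7 genes. Of 7 clusters tied at 6 members, the pair with the lowest IDRs, at Cyp1b1 and on chromosome 8, took the last places. The 9 members at chr4:129108582-129263683 were spread over 6 genes from Tmem54 to C77080, with members inside Tmem54, Fndc5, S100pbp and C77080. The 8 at chr2:30692586-30836686 were mostly in the gene-poor stretch before 1700001O22Rik, where the strongest (IDR 6.3e-07) was 87.2 kb from that gene. The 8 on chromosome 15 lay within and beside Tcf20, a transcriptional coregulator gene (4 members inside), and Nfam1 (2 inside). At Cyp1b1, a cytochrome P450 gene, none of 6 members lay inside the gene, and their distances to it or to Rmdn2 were 0.652 to 56.9 kb. The 6 at chr8:70593925-70698502 overlapped 7 genes, with members inside Jund, which encodes a subunit of the AP-1 transcription factor, and Pgpep1.

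The 3 lowest IDRs of clustered regions were in clusters of 3 members. A region inside Ksr2, which encodes a scaffold protein of the Ras-MAP kinase pathway, was 80.1 kb from its nearer end (chr5:117687419-117688469). It had an IDR of 6.63e-08, a significance value of 9.36e-100 in replicate 1 and one listed as 0 in replicate 2. Its neighbours in the same gene were far weaker, with IDRs of 0.0117 and 0.00119. Between Hoxb1 and Skap1 a region with an IDR of 7.28e-08 lay 42.8 kb from Skap1, and one near Trib2, a pseudokinase gene, with an IDR of 7.69e-08 lay 92.7 kb from it. A region on chromosome 5 with an IDR of 1.26e-07 was 249.6 kb from its nearest gene, Gm7361.

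Members of a cluster differed widely in strength. Within clusters of 3 or more, the highest IDR exceeded the lowest by a median factor of 1250 (range 1.87 to 350000), and the intraclass correlation of log10 IDR within clusters was -0.039. Of the 227 clusters, 76 had a member among the strongest 10% of all reproducible regions (IDR of 3.99e-06 or lower).

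As a group, clustered regions were only slightly stronger than isolated ones. Their median IDR was 0.00193 (interquartile range 6.41e-05 to 0.0146), against 0.00303 (0.000133 to 0.0176) for isolated regions, and regions with 1 neighbour lay between at 0.00251. The median significance value in replicate 1 was 3.42e-07 for clustered and 1.02e-06 for isolated regions, and in replicate 2 it was 6.96e-14 for clustered and 3.59e-12 for isolated regions. Of the clustered regions 94 (12.2%) belonged to the strongest 10%, and of the isolated ones 221 (9.03%). The distributions overlapped over nearly their whole range. Median widths were 373.5 bp for clustered and 375 bp for isolated regions. The 58 regions with 5 or more neighbours had a median IDR of 0.000642, and the 72 with 4 had one of 0.00329, so the medians did not run in order of neighbour number. The 58 share clusters with one another and are not separate places. The significance values of the replicates were related with a Spearman rho of 0.73 across clustered and 0.71 across isolated regions, which describes regions and not replicates.

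**Figure D3:**
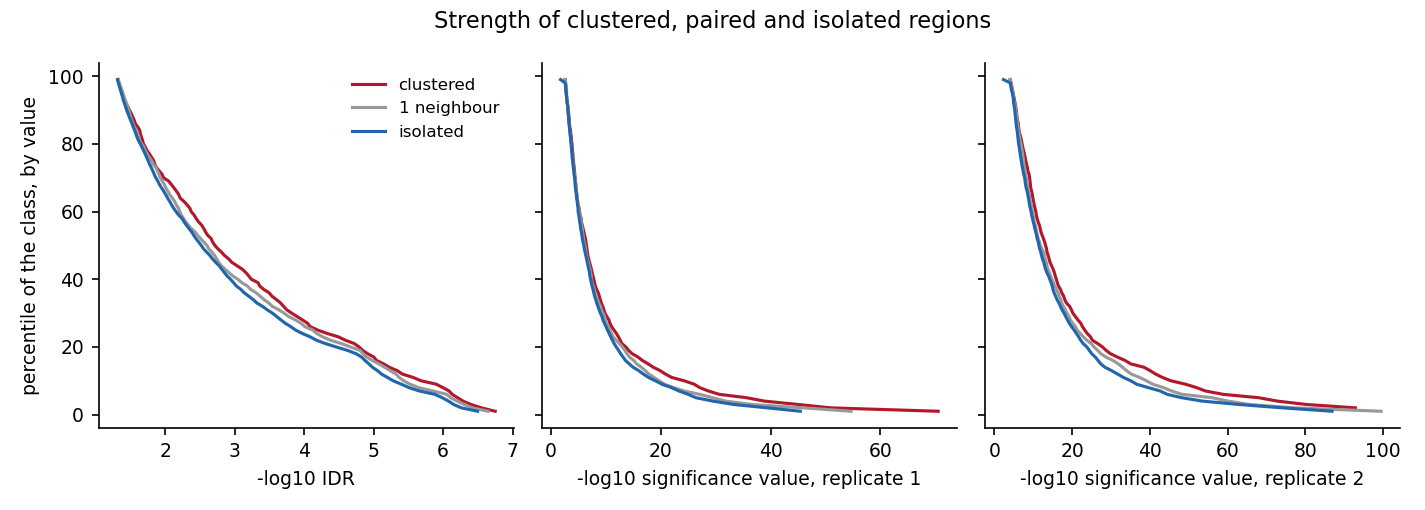
Percentile of each class (vertical axis) by −log10 IDR and by −log10 significance value of replicates 1 and 2 (horizontal axes), for clustered, 1-neighbour and isolated regions. The curves run close together, with clustered regions at slightly higher values through most of the range.

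Weaker calls were also more numerous around clustered than isolated regions, counted per region. The 50 kb windows around members of 1 cluster overlap, so a call can enter the averages below more than once. These averages therefore describe regions and not separate places. Within 50 kb of a clustered region lay on average 2.38 regions of the overlap table above the IDR threshold, against 1.1 around an isolated region. Peaks found in replicate 2 alone averaged 6.3 around clustered and 3.12 around isolated regions, whereas peaks found in replicate 1 alone averaged 1.96 and 1.84 around clustered and isolated regions. When the 4360 strongest peaks of each replicate were clustered by the same rule, replicate 1 gave 229 clusters, which overlapped 153 of the 227 (67.4%). Replicate 2 gave 281 clusters, which overlapped 166 (73.1%). All 28 clusters of 5 or more members were overlapped in both replicates. The largest cluster of replicate 1 was at Hes1 with 15 peaks, and that of replicate 2 at Cxxc5 with 14. These lists are the ones from which the reproducible regions were made, so the overlaps are not independent of them. By chromosome, the clustered share of reproducible regions ranged from 8.2% on chromosome 13 to 26.4% on chromosome 18, and chromosome 2 held the most, with 105 of 402.

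By 2 measures of place, within 1 kb of a gene end and inside a gene, clusters did not differ detectably from isolated regions. Gene positions played no part in choosing members, so this was tested, with the middle region of each cluster standing for it. Either end of a protein-coding gene lay within 1 kb of 49 of 227 such regions (21.6%, 16.4 to 27.5), and within 1 kb of 493 of 2448 isolated regions (20.1%, 18.6 to 21.8). The odds ratio was 1.09 (95% interval 0.767 to 1.53, two-sided Fisher's exact test, p = 0.605, Benjamini-Hochberg adjusted over 2 tests 0.605). Inside genes lay 127 of 227 (55.9%, 49.2 to 62.5), against 1282 of 2448 isolated regions (52.4%, 50.4 to 54.4). Here the odds ratio was 1.16 (0.871 to 1.54, Fisher's exact p = 0.331, adjusted 0.605). These p-values and intervals cover counting error over regions, not variation between kidneys. At a looser IDR threshold of 0.1 the odds ratio inside genes was 1.33 (1.06 to 1.68, Fisher's exact test, adjusted p = 0.0253), and at 0.01 it was 0.913. The direction at gene ends turned under several choices, such as using all members, with an odds ratio of 0.851.

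**Figure D4:**
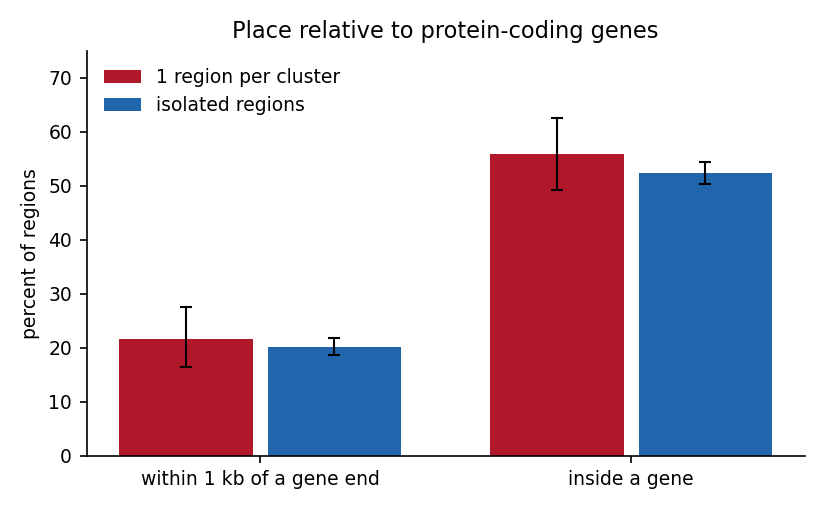
Percent of regions that lay inside a protein-coding gene, or no more than 1 kb from a gene's end, for the middle region of each of 227 clusters (red) and 2448 isolated regions (blue). Bars start at 0, error bars are exact 95% intervals, and the intervals of both classes overlap in each pair.

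Over all 770 members, 136 (17.7%) were within 1 kb of a gene end and 397 (51.6%) inside genes, and the median distance to a gene end was 12.6 kb, against 18.6 kb for isolated regions. Within 10 kb of an end lay 46.1% of clustered and 40.5% of isolated regions. Members of 1 cluster are not independent. With the middle region of each cluster, the odds ratio within 5 kb of an end was 1.14 (0.85 to 1.53). Within 10 kb it was 1.24 (0.936 to 1.65, Fisher's exact test, adjusted p = 0.242). Of the 58 regions with 5 or more neighbours, 6.9% were within 1 kb of an end. By the rule these 58 lie within the 28 clusters of 5 or more members, so they are not 58 separate places. Of the lowest-IDR members of clusters of 3 or more, 18.9% (13.7 to 25) were within 1 kb of an end, against 16.4% (13.3 to 19.8) of their other members. In 81 of these 201 clusters (40.3%, 33.5 to 47.4) some member was within 1 kb of a gene end.

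Clusters differed in how many genes they took in. The span of 125 of the 227 (55.1%, 48.3 to 61.7) overlapped exactly 1 protein-coding gene, 56 (24.7%, 19.2 to 30.8) overlapped none and 46 (20.3%, 15.2 to 26.1) overlapped 2 or more. In 65 clusters (28.6%, 22.8 to 35) every member lay inside the same gene, but 10 of these had a single member. Of the 201 clusters of 3 or more, 55 (27.4%, 21.3 to 34.1) lay wholly inside 1 gene in this way, 112 (55.7%, 48.6 to 62.7) overlapped exactly 1 gene and 44 (21.9%, 16.4 to 28.3) overlapped none. The 53 genes that held all members of a cluster of 3 or more had a median length of 135 kb. The median was 93.1 kb for the 1200 genes that held an isolated region and 17.5 kb for all 20665 protein-coding genes. A gene can hold all members only if it reaches across them, whereas a gene of any length can hold 1 region. The longer median of the 53 is thus in part set by the definition. Among the 53 were Zbtb7c, a zinc-finger gene with 6 members of 1 cluster inside it, and Ctdspl, a phosphatase gene with 5. Msi2, an RNA-binding protein gene, and Gse1 also had 5 each. Of the clusters without a gene, 17 were over 50 kb and 9 over 100 kb from the nearest one. The farthest, on chromosome 2, stood 393 kb from Dhx35.

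Inside or within 10 kb of 330 of the 20665 protein-coding genes (1.60%) lay a clustered region, against 2054 (9.94%) with an isolated region and 2936 (14.2%) with any reproducible region. The 330 became 128 at an IDR threshold of 0.01, 195 with a distance of 25 kb and 640 with 100 kb, so the 1.60% holds for the settings used here. Zbtb7c had the most, 9, followed by Midn with 7 and by Auts2, Maml3, Ahdc1 and Foxp1 with 6 each. Sost, a gene for a secreted Wnt inhibitor, spans 4.56 kb and had 5, which were shared with its neighbour Dusp3. With rows under 1 kb apart joined, the 6 members of the Sost cluster became 2 regions. The 6 and 3 members of the Zbtb7c clusters became 3 and 2, the 7 at Midn became 4 and the 10 at Ahdc1 became 9. On 20 gene lists, 574 of 591 symbols were found in the gene table, and 45 of the genes found had a clustered region. With rows under 1 kb apart joined, 38 had one. The count then went from 6 to 5 for podocyte, 4 to 3 for Notch and 3 to 2 for retinoic acid genes. It went from 4 to 3 for renal stroma and from 15 to 14 for Hox genes. Each list share below stands beside the shares of all genes, 1.60% for clustered and 9.94% for isolated regions. Isolated regions were also more numerous, 2448 against 770 clustered ones. Long genes can collect more regions, and the list shares below were not adjusted for gene length. The lists were also chosen with earlier results of these data known. The list shares are therefore descriptions, and their difference from the shares of all genes was not tested.

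Of 49 podocyte genes, 16 (32.7%) had an isolated region, against 9.94% of all genes. A clustered region lay at 6 (12.2%), against 1.60% of all genes. They were Sulf1, Sulf2, Nes, Bmp7, Foxd1 and Inf2. Sulf1 and Sulf2 encode extracellular enzymes that remove sulphate from heparan sulphate chains. At Sulf1 (chromosome 1), 5 regions lay within 26.2 kb, and they became 2 when rows under 1 kb apart were joined. The strongest of the 5 was 0.068 kb from the gene's end, at chr1:12691961-12692297. Its IDR was 1.04e-06, with significance values of 1.37e-22 in replicate 1 and 1.28e-32 in replicate 2. Sulf2 had 3 regions, the strongest (IDR 2.9e-06) inside the gene 39.7 kb from an end and the next (IDR 1.06e-05) over the promoter printed above. Nes had 2 regions, at both ends of the gene. The third member of that cluster, with an IDR of 0.0107, was 1.51 kb from Crabp2, a gene for a retinoic acid-binding protein. Bmp7, a growth factor gene of kidney development, had 2 regions with a lowest IDR of 0.000364. Foxd1, a forkhead gene of the renal stroma and of podocytes, had 2, none inside the gene, and Inf2, a formin gene, had 1.

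Of 29 nephron progenitor genes, 2 (6.9%) had a clustered region (all genes 1.60%), against 6 (20.7%) with an isolated one (all genes 9.94%). Next to the homeobox gene Uncx stood a cluster of 4, all outside the gene, the strongest 0.206 kb from its end with an IDR of 1.18e-06. The other was Hoxc11, with 1 region 3.29 kb away.

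Pathways of nephron formation were also represented. Of 31 Notch pathway genes, 4 (12.9%) had a clustered region (all genes 1.60%), against 9 (29.0%) with an isolated one (all genes 9.94%). Besides Hes1 these were Maml3, Heyl and Hes7. Maml3, a coactivator of Notch, had 6 members of 2 clusters inside it, with a lowest IDR of 1.01e-06. Heyl, a Hes-related repressor, had 3 strong regions with IDRs of 8.29e-07, 9.53e-06 and 9.93e-07. With rows under 1 kb apart joined, these became 2 regions. Hes7 had 1, at an IDR of 0.00544.

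Of 19 retinoic acid pathway genes, 3 (15.8%) had a clustered region and as many had an isolated one. The receptor gene Rara held all 4 members of its cluster, with a lowest IDR of 7.9e-07. Its partner receptor gene Rxra held 3 (lowest IDR 1.96e-06), and Crabp2 was the third.

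Of 36 FGF pathway genes, 2 (5.56%) had a clustered region: Il17rd, an inhibitor of FGF signalling, with 3 weak regions (lowest IDR 0.0141), and the receptor gene Fgfr4 with 1. Of 39 BMP and TGF-beta genes, 2 (5.13%) had one: Bmp7, and Smad3, the signal transducer, with 4 regions. The region over the Smad3 promoter (chr9:63757940-63758939) covered all 300 bases printed, with an IDR of 2.21e-05 and significance values of 1.82e-09 and 9.53e-49 in replicates 1 and 2. Of the 46 genes on the Wnt list, 1 (2.17%), Cxxc5, had a clustered region, a share near the 1.60% of all genes. Sost and Wnt1 are not on that list and had 5 and 1 clustered regions, so the share holds for the listed genes only. Of 23 Hippo genes, 1 (4.35%), Ajuba, had one, against 9 (39.1%) with an isolated region, which 9.94% of all genes had. Of 45 semaphorin, plexin and axon guidance genes, 2 (4.44%) had one, Unc5b, a netrin receptor gene, with 3 and Sema3f with 2, against 17 (37.8%) with an isolated region. Of 42 actin cytoskeleton genes, 3 (7.14%) had one: the formin gene Daam2 with 4, Arpc2 of the Arp2/3 complex with 3, and Inf2.

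Some genes on the lists of other kidney cell types also had a clustered region. Of 27 renal stroma genes, 4 (14.8%) had a clustered region, namely Foxd1, Pdgfrb, Nr2f2 and Des, and 4 had an isolated one. Pdgfrb, a growth factor receptor gene, held 2 with a lowest IDR of 0.00263, and the region at Des was near the threshold with an IDR of 0.0453. Of 27 ureteric bud and collecting duct genes 1 (Hoxb7), of 24 early nephron genes 1 (Pax8, with 4 regions), of 30 tubule genes 2 (Cubn with 3 and Wnk4 with 2) and of 24 endothelial genes 1 (Mmrn2 with 2) had one. None of the 22 immune, 18 neuronal, 23 liver and 27 housekeeping genes had a clustered region. With so few genes per list, a count of 0 stands beside a share of 1.60% in all genes and no difference from it can be read.

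The Hox list had the largest share, 15 of 39 genes (38.5%), and no gene with an isolated region. The 15 were not separate events, since the windows of neighbouring Hox genes overlap and 4 clusters accounted for all of them. In the HoxB cluster, 4 members at chr11:96271113-96309619 lay inside or within 10 kb of 7 genes, Hoxb3 to Hoxb9, with the strongest 0.0825 kb from Hoxb9 with an IDR of 1.37e-05, and a region by Hoxb1 belonged to the next cluster. In HoxC, 3 members ran from near Hoxc11 to Hoxc6, where the strongest had an IDR of 1.41e-06. In HoxD, 3 lay at Hoxd3 and Hoxd4 with a lowest IDR of 0.000477. In total 22 of the 39 genes had some reproducible region within 10 kb.

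**Figure D5:**
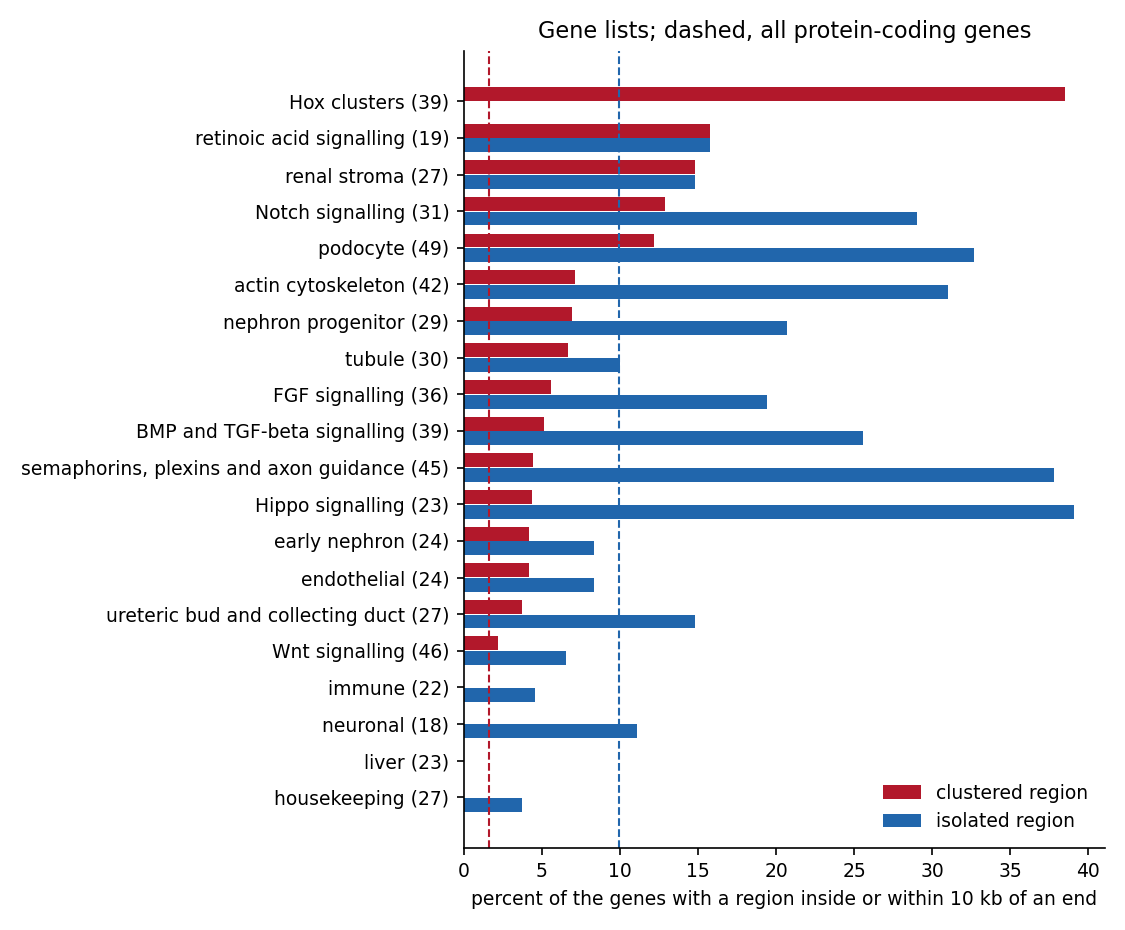
Percent of the genes of each list (number found in parentheses) with a clustered region (red) or an isolated region (blue) inside or within 10 kb of an end; dashed lines are the shares of all protein-coding genes, 1.60% and 9.94%. The Hox list has the highest clustered share, carried by 4 clusters, and in most kidney lists fewer genes have a clustered than an isolated region.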

How the data were processed

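WT1 ChIP-seq regions of 2 samples were analysed; the 2 IgG samples have no peak list among the data used here. The authors deposited, for each WT1 sample, a list of peaks with a p-value or q-value per peak, called the significance value; no source used here says whether it is p or q. They also deposited a table of regions found in both samples, with a p-value-like or q-value-like error rate between 0 and 1, read here as an IDR. The build is mm10 per the submitters' processing notes. The aligner, the peak caller and versions were not given in the sources used here. Per the labels' protocols, DNA was cut with restriction enzymes before adapter ligation, and libraries had 18 rounds of PCR. The files hold no read counts, so the depth behind a region is unknown.

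Gene positions and promoter sequences came from RefSeq (GRCm38.p6, the assembly on which mm10 is based). The gene table gives no strand or start sites, so distances run from a region's midpoint to the nearer end of a protein-coding gene. Shares have exact Clopper-Pearson 95% intervals. Location was compared by two-sided Fisher's exact tests with 1 region per cluster. Python 3.11.15, pandas 2.3.3, numpy 2.4.6, scipy 1.17.1 and matplotlib 3.10.9 were used, and the functions were tested on simulated data. The members and gene lists were chosen with earlier results of these data known. Named clusters were the 10 with the most members (ties by lowest IDR), the 5 with the lowest IDR, the 3 widest and, among those of 4 or more, the 3 with the lowest median spacing, with the genes that members lie inside or, failing that, the nearest gene. From each list up to 4 genes were named, by number of clustered regions and then IDR; the other list genes and the genes with most clustered regions were chosen after their values were seen. Alternatives were other IDR thresholds, distances, neighbour numbers, joining of close rows, choices of region per cluster and each replicate alone.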

Additional observations from a re-analysis of the deposited data

Results flagged for a closer look

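Regions on the X chromosome were left out of all comparisons, and clustering was seen there too. Of 51 reproducible regions on the X chromosome, 7 had 2 or more neighbours within 50 kb, in 3 clusters. One of these was a single region at Bcor, a transcriptional corepressor gene, and the other clusters, of 3 members each, overlapped no protein-coding gene. The IgG samples were not analysed here, so no control level stands beside this count.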

How the results depend on the processing

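The number of clustered regions, 770 as reported, followed the rule's settings. It was 326 at an IDR threshold of 0.01 and 1182 at 0.1, 473 with a distance of 25 kb and 1314 with 100 kb, 301 when 3 or more neighbours were needed, 481 with rows under 1 kb apart joined and 319 with rows under 5 kb apart joined. The number of clusters, 227 as reported, was 103 at an IDR of 0.01, 350 at 0.1, 362 with 100 kb, 73 with 3 or more neighbours and 118 with rows under 5 kb apart joined. Without replicate 1 or without replicate 2, the strongest peaks of the other alone gave 771 to 940 clustered regions and 229 to 281 clusters. The median IDR of members was 0.000327 at a threshold of 0.01 (isolated regions 0.00043) and 0.00438 at 0.1 (isolated 0.0105).

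The odds ratio at gene ends, 1.09 as reported, fell under 1 with all members (0.851), the first member (0.98), clusters of 3 or more members only (0.985), a distance of 100 kb (0.954), rows under 1 kb apart joined (0.785) and each replicate alone (0.691 to 0.918). That inside genes, 1.16 as reported, fell under 1 with all members (0.968), the lowest-IDR member (0.87) and an IDR of 0.01 (0.913), was 1.33 at an IDR of 0.1, and was 1.01 to 1.17 with each replicate alone. Of these 24 location results, 10 turned direction and 1 had an adjusted Fisher's exact p under 0.05, which was 0.0253. The share of clusters touching a single gene was 61.8% with 25 kb and 47.2% with 100 kb, and the share touching none was 17.7% with 100 kb and 32.0% at an IDR of 0.01. Genes of the lists beside clusters numbered 23 at an IDR of 0.01 and 38 with rows under 1 kb apart joined, against 45. The cause was not tested for any of these.

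Joining rows under 5 kb apart, clusters of 3 or more members only, and all alternatives for list genes and for clusters of 5 or more were chosen after seeing the data. No paired analysis was possible because the WT1 samples form a single group, with the IgG samples not analysed here. Without read counts, how depth limits the regions found cannot be given.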
